A study of Mus musculus with 9 samples.

Results

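The genes described here make and load MHC class II molecules in splenic B cells of naive mice. They are the chains of the class II molecules themselves (H2-Aa, H2-Ab1 and H2-Eb1), the invariant chain (Cd74), the chains of the peptide exchange factor DM (H2-DMa, H2-DMb1 and H2-DMb2), the chains of its inhibitor DO (H2-Oa and H2-Ob) and the class II transactivator (Ciita). They were chosen by symbol rather than by their values, though with earlier results of these data known. Each of the 10 has 1 row among the 24459 rows (23954 symbols) of the expression table. All 10 passed the minimum mean of 0.5 FPKM (fragments per kilobase of transcript, scaled to the mapped fragments of the library) that was set for testing.

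MHC class II molecules are pairs of an alpha and a beta chain that show peptides from endocytosed proteins to CD4+ T cells. The invariant chain holds the new pair together and fills its groove, proteases cut it down to the CLIP peptide, DM exchanges CLIP for other peptides, and DO, made chiefly in B cells, binds DM and restrains it. Ciita does not bind DNA itself and joins the RFX, CREB and NF-Y complexes that sit on the promoters of these genes.

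RNA was sequenced from 3 subsets of B cells, with 3 libraries each and 9 in all. Follicular (FO) B cells had high IgD, BDL lay in the same B220+ IgM int CD21 int CD23+ CD93- gate and had low or no IgD, and marginal zone (MZ) B cells were CD21 high and CD23-. The spleens came from untreated mice 8 to 10 weeks old, 5 mice were pooled for a sort, and the date code of a title gives the replicate number, so that each of the 3 dates gave 1 library of each subset. Allele, treatment and age were the same in all groups. The labels name the strain C57/BL6, whereas the study names B10.PL as the source of the sequenced cells.

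The strain matters for this locus. C57BL/6 mice lack the promoter of the E alpha gene, which the annotation therefore lists as the pseudogene H2-Ea-ps, and their E beta chain finds no partner. Here H2-Ea-ps was at 2946, 3534.5 and 3058 FPKM in FO, 2244, 2464 and 3142 in BDL and 2504, 2719 and 3274 in MZ libraries, rank 9 of all rows by mean. A transcript of that locus was thus abundant in all 9 libraries, which goes against the labelled strain. The reads were aligned to mm9, a C57BL/6 genome. The effect of allelic differences on the levels of H2-Aa, H2-Ab1, H2-Eb1 and the DM and DO genes was not tested. The groups compared would share it.

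The libraries carried B cell markers. Ms4a1 (CD20) lay between 402 and 852 FPKM and Cd79a between 930.1 and 1762. Fcer2a (CD23), which the sort used, was at 448 to 538 FPKM in FO, 389 to 476 in BDL and 26.0 to 34.5 in MZ libraries. Cr2 (CD21) was at 136 to 150, 97.8 to 115 and 400 to 505 FPKM in the same order. Cd93, although the gate was CD93-, was at 3.10 to 5.29 FPKM in FO, 10.2 to 15.9 in BDL and 1.12 to 1.74 in MZ. It was 3.19-fold higher in BDL than in FO (adjusted p = 0.00715 in limma). By flow cytometry the study found CD93 to be highest on BDL among these subsets, though it calls the rise marginal. The study nevertheless sums up the BDL phenotype as intermediate for CD93. The IgD transcript was not examined. Depth, estimated from the steps between low values, was such that 1 fragment on a transcript of 1 kb was worth 0.0138 to 0.0186 FPKM, far below the level of any of the 10 genes. BDL replicate 3 and MZ replicate 3, both of the third date, stood apart, with a median distance of 0.295 and 0.254 on the log2 scale from the other libraries of their subset against 0.0879 to 0.179 for the remaining ones, and the number of genes past the test without both is given beside each comparison. Dendritic cells and macrophages express class II genes at a high level, and of their 15 markers with a row 7 were below 1 FPKM in every library. Among these Itgax (CD11c) reached at most 0.669 FPKM, Zbtb46 0.415 and Csf1r 0.626. Lyz2, not among the 7, was at 0.656 to 3.25 FPKM over all libraries. Itgax was at 0.0560 to 0.190 FPKM in FO, 0.114 to 0.292 in BDL and 0.485 to 0.669 in MZ libraries. Csf1r was at 0.281 to 0.377, 0.330 to 0.435 and 0.434 to 0.626 FPKM in the same order. Zbtb46 and Lyz2 overlapped between all subsets. Itgax, Zbtb46 and Csf1r fell below the minimum for testing, and Lyz2 did not pass in any comparison. The 15 markers together summed to 10.8 to 16.7 FPKM in FO, 11.9 to 20.1 in BDL and 16.4 to 26.8 in MZ libraries. Some of them passed the limma test: Emr1 (F4/80) was at 3.13 to 3.88 FPKM in BDL and 0.640 to 0.887 in FO (3.98-fold higher, adjusted p = 8.22e-04), Itgam (CD11b) was 1.85-fold higher in BDL (0.0208) and 2.14-fold higher in MZ (0.00198) than in FO, and Cd68, whose 11.9 FPKM in 1 MZ library was the highest single value, was 1.80-fold higher in MZ (0.0167). By flow cytometry the study did not bear out a rise of F4/80 on BDL. Summed T cell markers were 10.0 to 11.6 FPKM in FO, 20.5 to 26.0 in BDL and 8.99 to 15.2 in MZ libraries. Of that list Cd5 was 3.49-fold higher in BDL (adjusted p = 0.00322 in limma) and 3.13-fold higher in MZ (9.17e-04) than in FO. The study found a marginal rise of CD5 on the surface of BDL. Lck was 2.22-fold higher in BDL than in FO (0.00730). Summed plasma cell genes were 186 to 223, 128 to 207 and 224 to 296 FPKM, NK cell genes 0.545 to 2.42, 1.66 to 3.39 and 0.721 to 2.83, and erythroid genes 1.98 to 4.31, 7.05 to 8.10 and 3.10 to 5.62 in the same order. Most of the plasma cell sum was Irf4, at 165 to 202, 101 to 180 and 200 to 270 FPKM. Sdc1 of that list was 5.35-fold higher in BDL than in FO (adjusted p = 0.00147 in limma) and 31.7-fold higher than in MZ (6.54e-06). No other gene of that list passed in BDL against FO. The part of any of these cells in the differences below was not tested.

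Of the 10 genes, 8 lie in the class II region of chromosome 17, and in the order of NCBIM37 (mm9) they are H2-Oa (chr17:34229285-34232179), H2-DMa (chr17:34272127-34276046), H2-DMb2 (chr17:34280252-34288498), H2-DMb1 (chr17:34290017-34297168), H2-Ob (chr17:34375848-34390850), H2-Ab1 (chr17:34400154-34406363), H2-Aa (chr17:34406276-34424772) and H2-Eb1 (chr17:34442828-34453144). H2-Aa is on the minus strand and its annotated span overlaps that of H2-Ab1 by 88 bases, so that reads there cannot be told apart without strand. Cd74 and Ciita lie on other chromosomes. The coding sequences of H2-DMb1 and H2-DMb2 share 754 of 786 bases (95.9%), and the split of reads between these 2 genes is uncertain.

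Class II promoters share an X box, bound by RFX, and a Y box, bound by NF-Y, at a nearly fixed distance, and the promoters are shown because this element is what the genes are known to have in common. RefSeq promoters (GRCm38.p6, 250 bases before to 50 after the start) were at hand for 7 of the 10 genes. In 6 of them the letters CNNNNAAC, chosen to fit the X box, were followed by TGATTGG, the Y box, after 20 to 40 bases on the gene's strand. The letters were chosen after the sequences had been seen. The stretch around the pair is given from 5′ to 3′ on the gene's strand, with both motifs in capitals.
H2-Aa (chr17:34287861-34287913, minus strand): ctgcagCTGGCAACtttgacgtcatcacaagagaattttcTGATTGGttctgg
H2-Eb1 (chr17:34305767-34305818, plus strand): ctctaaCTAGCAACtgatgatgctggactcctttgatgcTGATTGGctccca
H2-DMb1 (chr17:34153088-34153140, plus strand): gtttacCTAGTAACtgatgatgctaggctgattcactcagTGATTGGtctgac
H2-DMb2 (chr17:34145117-34145169, plus strand): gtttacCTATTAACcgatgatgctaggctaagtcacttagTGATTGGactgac
H2-Oa (chr17:34092294-34092346, plus strand): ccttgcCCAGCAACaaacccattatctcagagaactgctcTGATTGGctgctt
H2-Ob (chr17:34238809-34238858, plus strand): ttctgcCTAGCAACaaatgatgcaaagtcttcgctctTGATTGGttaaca
The bases between the motifs numbered 26 for H2-Aa, H2-DMb1, H2-DMb2 and H2-Oa, 25 for H2-Eb1 and 23 for H2-Ob. Of 32851 RefSeq promoters of the same length, 7.82% held TGATTGG on either strand and 0.560% held the pair. The windows of H2-DMa held no TGATTGG on either strand and so not the pair, which says only that these are not in these windows. H2-Oa and H2-Ob, the chains of DO, both carried the pair, and their transcript levels are compared further on.

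Levels spanned about 2 orders of size. Cd74 (chr18:60963502-60972300) was the highest of the 10 genes in every library and the third highest of all rows by mean. It was at 8816, 8952 and 9279.8 FPKM in FO, 7075, 7338 and 9090.2 in BDL and 5919, 6649 and 7903 in MZ libraries. H2-Aa came next in all 9, followed by H2-Ab1 and H2-Eb1, whose libraries separated in FO (1519.8 to 1694 against 1404 to 1429 FPKM) and overlapped in BDL and MZ. The order below them depended on the subset. H2-DMb2 exceeded all other DM and DO genes in every subset, H2-Ob and H2-DMb1 overlapped in MZ, and H2-Oa and H2-DMa overlapped in MZ and were separate in FO and BDL. Ciita (chr16:10480237-10527657) was the lowest throughout. Together the 10 genes made up 3.70, 3.82 and 3.73% of the summed FPKM of the FO libraries, 2.72, 2.85 and 3.29% in BDL and 2.42, 2.61 and 2.81% in MZ. In bulk RNA, fewer cells with a transcript and less of it per cell cannot be told apart.

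**Figure D1:**
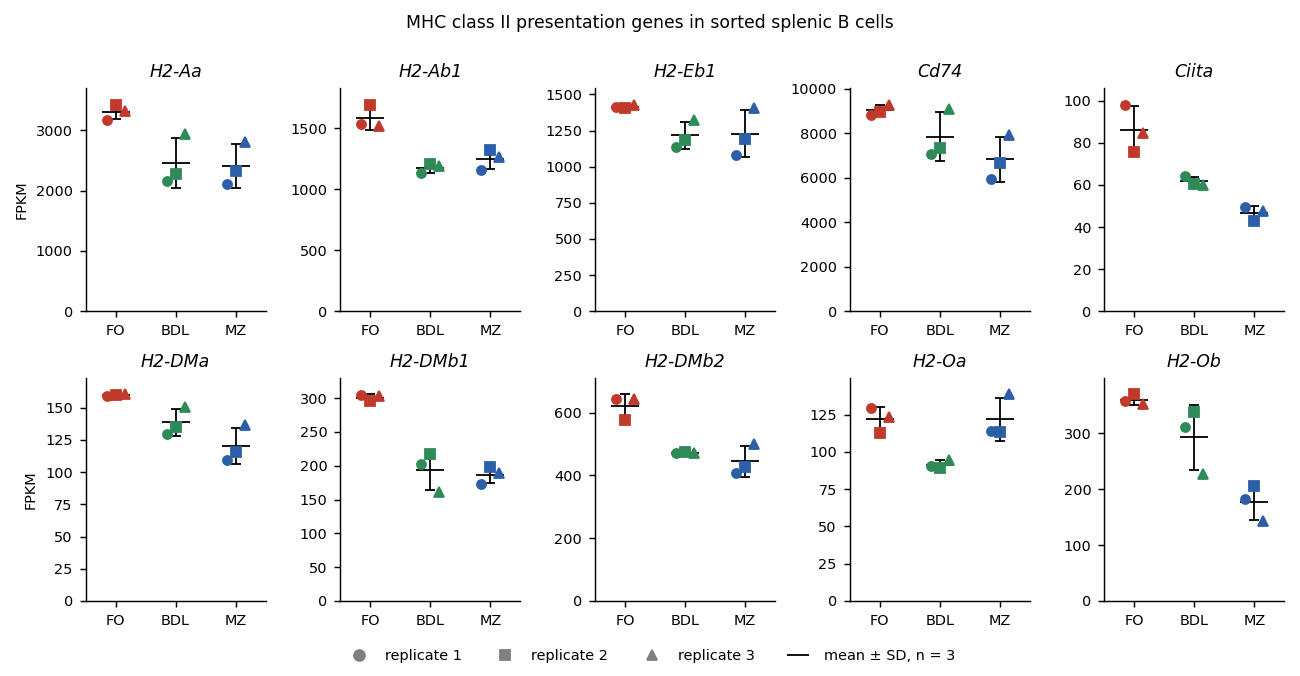
Level (FPKM, linear axis from 0) of each of the 10 genes in the 9 libraries, with 1 symbol for each date and the mean ± SD (n = 3) of FO, BDL and MZ B cells. The FO libraries lie above both other subsets for H2-Aa, H2-Ab1, H2-DMa, H2-DMb1, H2-DMb2, H2-Ob and Ciita, whereas H2-Oa is low in BDL alone.

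BDL were compared with FO B cells, which they were sorted beside, to ask whether loss of IgD goes with another level of presentation genes. H2-DMb1 and Ciita fell in BDL, by 1.56-fold and 1.39-fold, and the other 8 genes had lower means without passing the test. The test throughout was limma on log2(FPKM + 0.1) over the 11597 rows tested, and a gene passed at a Benjamini-Hochberg adjusted p under 0.05. Of all rows, 7.73% passed in either direction and 1.68% as lower in BDL. Of the 10 genes, 2 passed, both as lower. The median log2 difference of the 10 genes was -0.40, against 0.05 over all rows.

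H2-DMb1, a beta chain of DM, was at 304, 295 and 303 FPKM in FO libraries and at 202, 218 and 161 in BDL. Every BDL library lay below every FO library. The log2 difference was -0.65 ± 0.12 (SE), with an adjusted p of 0.0203 in limma. Ciita, the coactivator, was at 98.2, 75.5 and 84.9 FPKM in FO and at 64.4, 60.6 and 60.2 in BDL, again without overlap. Its log2 difference was -0.47 ± 0.11 (SE), with an adjusted p of 0.0378.

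The class II chains were lower in BDL on each date. H2-Ab1, the A beta chain, was at 1534, 1694 and 1519.8 FPKM in FO and at 1131, 1205 and 1187 in BDL, a log2 difference of -0.43 ± 0.11 (SE) that did not pass (adjusted p = 0.0560). H2-Aa, the A alpha chain, was at 3177, 3416 and 3319 FPKM against 2159, 2278 and 2934, with a log2 difference of -0.44 ± 0.17 (SE) and an adjusted p of 0.160. Of these BDL values that of the third date was nearest to the FO level, as it also was for Cd74, H2-Eb1 and H2-DMa. H2-Eb1, the E beta chain, was at 1411, 1404 and 1429 FPKM in FO and 1139, 1184 and 1324 in BDL (log2 difference -0.22, adjusted p = 0.342). Cd74 differed by -0.21 (95% interval -0.63 to 0.21, adjusted p = 0.502) and its BDL and FO libraries overlapped. It was the only one of the 10 genes whose libraries did. Libraries of 9 of the 10 genes did not overlap and were lower in BDL, against 10.3% of all rows. Each of the 10 was lower on all 3 dates, a count for which the share of all rows was not taken.

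The remaining DM and DO chains had log2 differences between -0.21 and -0.41. H2-DMb2 was at 644, 578 and 643 FPKM in FO and 470.1, 474 and 472 in BDL (adjusted p = 0.0691), and H2-Oa, the DO alpha chain, at 129, 113 and 124 against 90.6, 88.9 and 94.8 (adjusted p = 0.0513). Both pairs of groups were separate, and the BDL libraries of H2-DMb2 spread by only 2.07 FPKM (SD). H2-DMa was at 159, 159.9 and 160.2 FPKM in FO and at 129.6, 135 and 150.5 in BDL (adjusted p = 0.271). H2-Ob, the DO beta chain, was at 358, 369.7 and 353 against 311, 339 and 227 FPKM (adjusted p = 0.318), and here the third date gave the lowest BDL value rather than the highest. Without BDL replicate 3, or without both third-date libraries, the log2 difference of H2-Ob was -0.15 in place of -0.32.

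With the date code as a block in the limma fit, 5 of the 10 genes passed as lower in BDL, H2-Ab1 (adjusted p = 0.0256), H2-DMb2 (0.0366) and H2-Oa (0.0217) in addition to H2-DMb1 and Ciita, where 4.93% of all rows did. Without both libraries of the third date 7 passed as lower against 3.77% of rows, with H2-Aa at an adjusted p of 0.0114, and Ciita did not (0.0605). Both calls were lost without some single libraries. H2-DMb1 missed the threshold without FO replicate 1 (adjusted p = 0.0853), FO replicate 2 (0.0601), FO replicate 3 (0.0835) or BDL replicate 1 (0.0559). Its log2 difference stayed at -0.64 to -0.68 there, and 331, 488, 324 and 407 of all rows passed, where 896 did with every library. Ciita missed the threshold without any one library (0.0501 to 0.127) other than FO replicate 2 or MZ replicate 3. Ciita also missed it in the 6 compared libraries alone (0.0679) and after the correction for GC content and length (0.0512). No gene of the 10 reached the 2-fold minimum that the study added to its own test, which 0.267% of rows did as lower in BDL. The excess of calls in BDL among all rows depended on scaling, with 78.2% of called rows higher in BDL as deposited, 61.9% after upper quartile scaling and 64.1% after quantile normalization.

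**Figure D2:**
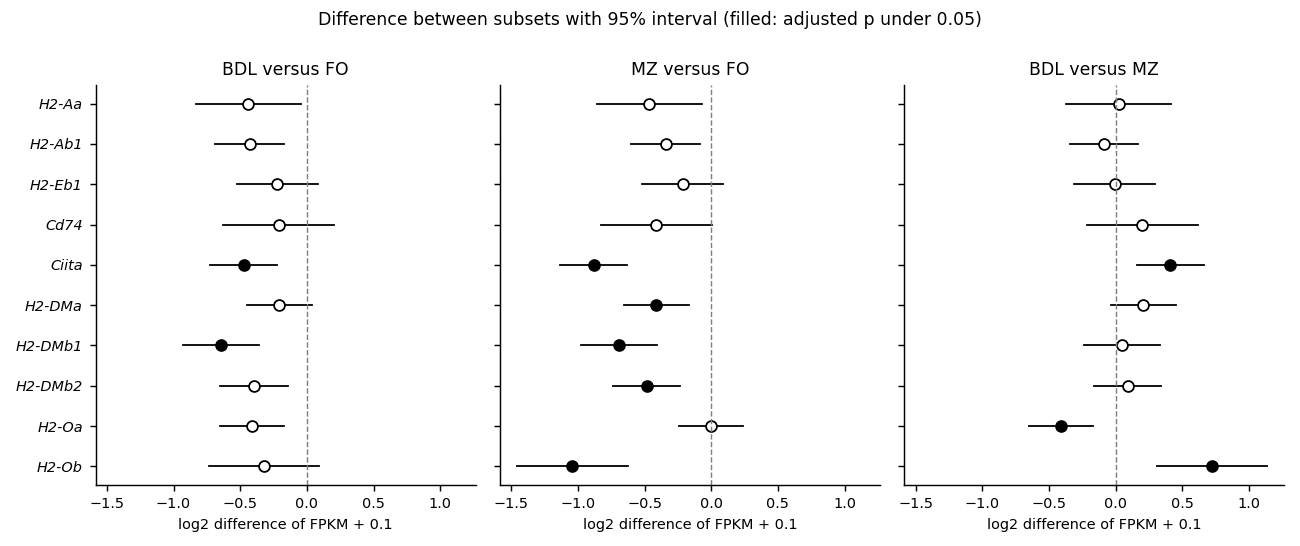
Log2 difference of FPKM + 0.1 with its 95% interval for each of the 10 genes in the 3 comparisons, with filled points for an adjusted p under 0.05 in limma. All points but that of H2-Oa lie left of 0 for MZ against FO (H2-Oa is at 0.00, and above 0 after upper quartile scaling or quantile normalization), and H2-Oa and H2-Ob lie on opposite sides of 0 for BDL against MZ.

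MZ B cells were compared with the same FO libraries, so that these values are not independent of those above. H2-Ob fell most, by 2.06-fold, followed by Ciita (1.84-fold), H2-DMb1 (1.61-fold), H2-DMb2 (1.40-fold) and H2-DMa (1.33-fold). The 3 DM genes and the DO beta chain gene were thus lower in MZ B cells, while the interval of H2-Oa spanned 0, and the contrast between both DO genes was not tested. In all, 5 of the 10 genes passed as lower and 0 as higher, where 27.1% of all rows passed in either direction and 12.8% as lower. The median log2 difference was -0.44 for the 10 genes and -0.01 for all rows.

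H2-Ob was at 183, 205 and 143 FPKM in MZ libraries, against 353 to 369.7 in FO. It was the only gene of the 10 to pass the 2-fold minimum, which 3.39% of all rows passed as lower (log2 difference -1.04 ± 0.18 SE, adjusted p = 0.00339). Ciita was at 49.4, 42.8 and 47.5 FPKM in MZ, below every FO and every BDL library. Its log2 difference from FO was -0.88 ± 0.11 (SE), with an adjusted p of 5.64e-04. H2-DMb1 was at 173, 198 and 189 FPKM in MZ (log2 difference -0.69 ± 0.12 SE, adjusted p = 0.00399). H2-DMb2 was at 407, 427 and 502 FPKM and differed from FO by -0.48 ± 0.11 (SE, adjusted p = 0.0127). For H2-DMa, the alpha chain that pairs with either DM beta chain, the MZ values were 109, 116 and 136 FPKM and the log2 difference -0.41 ± 0.11 (SE, adjusted p = 0.0213).

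The chains of the class II molecules did not pass. H2-Aa was at 2107, 2319 and 2811 FPKM in MZ (log2 difference from FO -0.46, adjusted p = 0.0826), H2-Ab1 at 1161, 1319 and 1267 (-0.34, 0.0559) and H2-Eb1 at 1083, 1195 and 1404 (-0.21, 0.284). The highest MZ value of H2-Eb1 equalled the lowest FO value to the precision printed, so that these groups met, and the third date was again the highest for H2-Aa. Cd74 differed by -0.41 (95% interval -0.83 to 0.00, adjusted p = 0.136), and its MZ libraries all lay below the FO libraries. H2-Oa was at 114, 113 and 139 FPKM in MZ, within and above the FO range of 113 to 129, with a log2 difference of -0.00 (95% interval -0.24 to 0.24, adjusted p = 0.991). Libraries of 8 genes did not overlap and were lower in MZ, against 22.5% of all rows. On all 3 dates 9 genes were lower, and here too the share of all rows was not taken.

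With the date code as a block 7 of the 10 passed, H2-Aa (adjusted p = 0.0332) and H2-Ab1 (0.0284) in addition, where 19.1% of rows passed as lower. Without both third-date libraries every gene except H2-Oa passed, H2-Eb1 at 0.0152 and Cd74 at 0.00722 among them, against 23.2% of rows. The calls for H2-Ob, Ciita and H2-DMb1 held with any 1 library left out. H2-DMa missed the threshold without FO replicate 1, 2 or 3 or MZ replicate 1 or 2 (adjusted p 0.0591 to 0.0787), and H2-DMb2 without FO replicate 1, FO replicate 3 or MZ replicate 1 (0.0525 to 0.0593). H2-Aa passed without BDL replicate 3 (0.0464) or MZ replicate 3 (0.0398).

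BDL and MZ B cells, both with lower means than FO for most of these genes, were then compared with each other. BDL had more H2-Ob (1.65-fold) and Ciita (1.33-fold) and less H2-Oa (1.33-fold lower). For the other 7 genes the log2 differences lay between -0.09 and 0.21 and did not pass. Of all rows 28.1% passed in either direction, 16.5% as higher and 11.6% as lower in BDL, and of the 10 genes 2 passed as higher and 1 as lower.

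H2-Ob, at 311, 339 and 227 FPKM in BDL, exceeded the MZ values of 183, 205 and 143 in every library, with a log2 difference of 0.72 ± 0.18 (SE, adjusted p = 0.0192). Ciita was 0.41 ± 0.11 (SE) higher on the log2 scale in BDL (adjusted p = 0.0254) and its 9 libraries fell into 3 separate ranges, 75.5 to 98.2 FPKM in FO, 60.2 to 64.4 in BDL and 42.8 to 49.4 in MZ. H2-Oa moved the other way, with a log2 difference of -0.41 ± 0.10 (SE, adjusted p = 0.0207) and no BDL library above 94.8 FPKM where the MZ libraries began at 113. Groups that were separate and higher in BDL were 2 of the 10 genes, against 22.6% of rows, and 1 was separate and lower, against 16.4%. The intervals of the class II chains admit differences in either direction. That of H2-Aa ran from -0.37 to 0.42, that of H2-Ab1 from -0.35 to 0.17 and that of H2-Eb1 from -0.31 to 0.29.

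The block left the same 3 genes past the test, against 42.7% of rows, and none of the 10 reached the 2-fold minimum, which 7.8% of rows did. Each of the 3 calls was lost without BDL replicate 1 or BDL replicate 2 (adjusted p 0.0567 to 0.0795), that of H2-Ob also without MZ replicate 1 (0.0513) and that of Ciita without MZ replicate 2 (0.0913). The call of Ciita was lost after upper quartile scaling (0.0727) or quantile normalization (0.138) too, and that of H2-Ob in the 6 compared libraries alone (0.0666). H2-DMa passed as higher in BDL without MZ replicate 3 (0.0434) or without both third-date libraries (0.0200, where 4 genes passed against 38.6% of rows). Among all rows that passed, 58.6% were higher in BDL as deposited and 44.0% after upper quartile scaling.

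DM and its inhibitor DO act on the same loading step, and the ratios between the transcripts of their chains were set out for each library. H2-Oa over H2-DMa, the ratio of the alpha chains' FPKM, was 0.816, 0.705 and 0.771 in FO, 0.699, 0.657 and 0.630 in BDL and 1.04, 0.980 and 1.02 in MZ libraries. The 3 subsets did not overlap, with BDL lowest and MZ highest. H2-Oa over H2-Ob, the ratio of the chains of DO itself, was 0.362, 0.305 and 0.350 in FO, 0.291, 0.263 and 0.417 in BDL and 0.625, 0.552 and 0.973 in MZ. MZ B cells thus carried the highest ratio of the DO alpha to the beta chain, and the FO and BDL ranges overlapped, though not without the third-date libraries (0.263 and 0.291 in BDL). H2-Ob over the summed DM beta chains was 0.377, 0.423 and 0.373 in FO, 0.463, 0.489 and 0.359 in BDL and 0.315, 0.328 and 0.206 in MZ. The MZ libraries were the lowest here, and without the third date the BDL libraries were the highest. These ratios combine genes already tested and are given as descriptions.

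The invariant chain was set against its partners in the same way. Cd74 over the summed H2-Aa, H2-Ab1 and H2-Eb1 was 1.44, 1.37 and 1.48 in FO, 1.60, 1.57 and 1.67 in BDL and 1.36, 1.38 and 1.44 in MZ libraries. The BDL libraries lay above all others, and FO and MZ overlapped. H2-Aa over H2-Ab1 had means of 2.09 ± 0.0855 in FO, 2.09 ± 0.331 in BDL and 1.93 ± 0.251 in MZ (SD, n = 3), and its libraries overlapped between subsets, though not without the third date (1.89 and 1.91 in BDL, 1.76 and 1.81 in MZ, 2.02 to 2.18 in FO). H2-DMb1 over H2-DMb2 was 0.471 to 0.511 in FO, 0.341 to 0.460 in BDL and 0.377 to 0.463 in MZ. The FO libraries were the highest for that ratio of near-identical genes, and BDL and MZ overlapped.

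**Figure D3:**
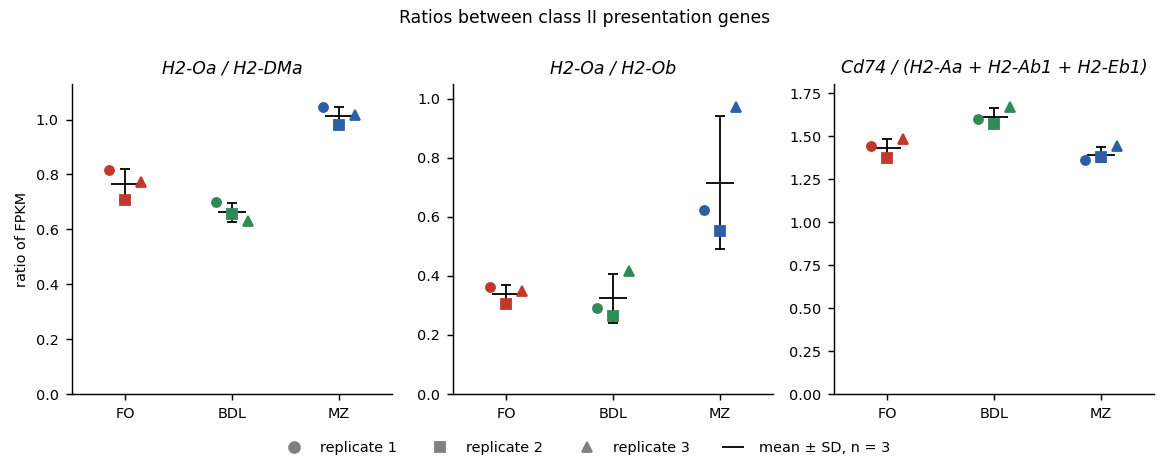
Ratios of FPKM (linear axes from 0) in the 9 libraries with the mean ± SD (n = 3), for the alpha chains of DO and DM, for both chains of DO and for the invariant chain over the summed class II chains. MZ libraries are the highest for H2-Oa over H2-DMa (0.980 to 1.04) and over H2-Ob, and BDL libraries the highest for Cd74 over its partners (1.57 to 1.67).

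The rows most like 4 of these genes were found from the root mean square distance between standardised log2 values over the 9 libraries, where 0 is an identical pattern, among 11596 other rows. For Cd74 they were H2-DMa (0.219), Cast (0.228), a calpain inhibitor, and Fam102a (0.238). That the nearest of all rows to the invariant chain was a DM chain is a statement on these 9 libraries, and H2-Aa came at rank 54 and H2-Eb1 at rank 92. For H2-DMb2 the nearest were Lrch4 (0.169), Nfkb2 (0.217), an NF-kB subunit, and Ralgds (0.246). For H2-Oa they were Zmiz1 (0.233), Pbx3 (0.249) and Lpcat1 (0.273), and H2-Ob came at rank 8186. For Ciita they were Hsd11b1 (0.156), Heatr5a (0.202) and Pck2 (0.203), with H2-DMb2 at rank 248 and H2-Ob at rank 540. The libraries share dates, and the distances carry no test.

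Of the other rows of the class II region, H2-Eb2, an E beta paralog, was low, at 7.86 ± 0.826 FPKM in FO, 5.73 ± 1.18 in BDL and 4.24 ± 0.690 in MZ (SD, n = 3). It fell in MZ against FO (log2 difference -0.88, adjusted p = 0.00613) and did not pass in BDL against FO (-0.46, 0.143) or BDL against MZ (0.42, 0.109), where it did pass with the date block (adjusted p = 0.0267 and 0.0181). Without both third-date libraries the difference between BDL and FO passed too, at -0.62. Btnl2, a butyrophilin-like gene at the edge of the region, also fell in MZ against FO (-0.93, adjusted p = 0.0153, but 0.0501 to 0.0580 without FO replicate 1, FO replicate 3 or MZ replicate 1) and differed by -0.70 in BDL against FO (0.0964). H2-Ea-ps, whose levels are given above, did not pass in any comparison, with log2 differences of -0.29 for BDL against FO (adjusted p = 0.362), -0.17 for MZ against FO (0.541) and -0.12 for BDL against MZ (0.664). H2-Ea and H2-Pa had no row.

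Proteases and reductases of the endosome cut antigen and the invariant chain, and 12 of their genes were listed and tested. Some were higher and some lower in MZ B cells. In BDL against FO 2 of 12 rose and 0 fell, in MZ against FO 4 rose and 2 fell, and in BDL against MZ 3 were higher and 3 lower. The medians were 0.21, 0.20 and -0.05 on the log2 scale. Of all rows 6.04% rose in BDL and 14.3% in MZ against FO, 12.8% fell in MZ, and 16.5% were higher and 11.6% lower in BDL against MZ. Ctsb (cathepsin B) was at 14.1, 12.9 and 12.9 FPKM in FO, 20.4, 18.7 and 25.2 in BDL and 32.7, 29.9 and 42.9 in MZ, without overlap of the 3 subsets. It rose by 0.67 in BDL (adjusted p = 0.0366) and by 1.38 in MZ (3.11e-04) against FO. Lgmn (legumain), an asparagine endopeptidase, followed the same order, with means of 55.0 ± 3.22, 71.6 ± 2.77 and 115 ± 11.8 FPKM (SD, n = 3). Its rise in BDL was 0.38 (adjusted p = 0.0495) and in MZ 1.06 (9.19e-05). Ctsz and Ctsc also rose in MZ, by 0.81 and 0.52 (adjusted p = 0.00544 and 0.0459). Ctsh, an aminopeptidase, and Cst3 (cystatin C), a protease inhibitor, fell in MZ, with log2 differences of -0.60 (7.78e-04) and -0.69 (0.0267). Ctsz, Lgmn and Ctsb had log2 differences of -0.55, -0.68 and -0.71 in BDL against MZ. Ctsh and Cst3 were higher in BDL than in MZ by 0.52 and 0.68, as was Ifi30 (GILT), a thiol reductase, which was at 224, 222 and 271 FPKM in BDL and 143, 147 and 197 in MZ (log2 difference 0.57, adjusted p = 0.0209). Ctss (cathepsin S), the protease that trims the invariant chain in B cells, was at 323 ± 24.0 FPKM in FO, 339 ± 107 in BDL and 364 ± 91.7 in MZ (SD, n = 3) and did not pass in any comparison. With the date block 4 of 12 rose in BDL against FO, Ifi30 (0.52) and Ctse (0.31) in addition, where 15.6% of rows rose. Without both third-date libraries 3 rose in BDL against FO, where 11.4% of rows did. In MZ against FO 4 then rose and 3 fell, where 18.8% and 23.2% of rows did. Between BDL and MZ 3 were then higher and 4 lower in BDL, where 25.6% of rows were higher and 38.6% passed in either direction. With 1 library left out, the calls against FO were lost for Ctsb in BDL (any FO or BDL library or MZ replicate 1, adjusted p 0.0530 to 0.128), Lgmn in BDL (any library but MZ replicate 3, 0.0608 to 0.176), Ctsc in MZ (any FO library, BDL replicate 1, MZ replicate 1 or 3, 0.0677 to 0.128) and Cst3 in MZ (FO replicate 1 or 3, MZ replicate 1 or 2, 0.0824 to 0.0934). Between BDL and MZ they were lost for Ctsz (FO replicate 1 or 3, BDL replicate 1 or 2, MZ replicate 1 or 3, up to 0.0912), Ifi30 (BDL replicate 3, MZ replicate 1 or 2, 0.0504 to 0.0790) and Cst3 (BDL replicate 1 or 3, MZ replicate 1 or 2, 0.0586 to 0.0980). Other settings also ended the call of Lgmn in BDL against FO (a minimum of 1 FPKM, both scalings, eBayes robust or without a trend, and the GC and length correction, 0.0501 to 0.0641), of Ctsc in MZ (no minimum, no trend and the correction, 0.0515 to 0.0587), and, in the 6 compared libraries alone, of Ctsz (0.0882), Ifi30 (0.0659) and Cst3 (0.0785) between BDL and MZ.

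The regulators of class II transcription were 18 listed genes, all tested. In BDL against FO 0 passed in limma, with 3 at an unadjusted p under 0.05 and 3 past the test with the date block, Irf1 as lower (against 4.93% of rows) and Nfyb and Prdm1 as higher (15.6%). Without both third-date libraries 1 passed as higher, where 11.4% of rows did. In MZ against FO 6 fell and 1 rose, where 12.8% of rows fell and 14.3% rose, and without both third-date libraries 10 fell and 2 rose, where 23.2% and 18.8% of rows did. The genes that fell were Irf1 (-0.90, adjusted p = 0.00168), Nfya (-0.84, 0.00214), Irf8 (-0.73, 0.00174), Nfyb (-0.46, 0.0349), Ep300 (-0.42, 0.0213) and Crebbp (-0.33, 0.0185), and they encode interferon regulatory factors, NF-Y subunits and the acetyltransferases that Ciita recruits. Nfya was at 26.4, 23.3 and 30.2 FPKM in FO, 23.2, 22.7 and 23.1 in BDL and 14.0, 13.0 and 17.7 in MZ libraries. Its MZ libraries were all below those of the other subsets. Irf8 was likewise at 77.2 to 99.6 FPKM in MZ and at 137 to 158 in FO and BDL. Rfx5, the RFX subunit that binds the X box, was at 30.1 ± 2.86, 26.9 ± 2.26 and 26.7 ± 1.14 FPKM in FO, BDL and MZ (SD, n = 3) and did not pass, nor did Rfxap or Rfxank. Prdm1, which encodes Blimp-1, known as a repressor of Ciita in plasma cells, rose in MZ by 2.89 (adjusted p = 1.84e-04) from 0.376 to 0.814 FPKM in FO to 3.50 to 5.41 in MZ libraries. Prdm1 and Irf4 were lower in BDL than in MZ, with log2 differences of -2.12 (adjusted p = 0.00118) and -0.78 (0.0280), whereas Nfyb, Irf8, Nfya and Irf1 were higher in BDL by 0.90, 0.71, 0.64 and 0.55. These made 4 higher and 2 lower of 18, near the 16.5% and 11.6% of all rows, with 9 higher under the date block (26.2% of rows) and 8 without both third-date libraries (25.6%). With 1 library left out, the calls in MZ against FO were lost for Nfyb (any FO library, MZ replicate 1 or 2, adjusted p 0.0609 to 0.127), Crebbp (FO replicate 1 or 3, MZ replicate 1, 0.0616 to 0.0818) and Ep300 (FO replicate 3, MZ replicate 1, 0.0741 to 0.0871), and those in BDL against MZ for Irf4 (BDL replicate 1 or 3, MZ replicate 2, 0.0593 to 0.0959) and Irf1 (BDL replicate 2, MZ replicate 1, 0.0560 to 0.0736). The call of Irf4 was also lost without both third-date libraries (0.0696) and in the 6 compared libraries alone (0.0773), that of Irf1 in BDL against MZ after quantile normalization (0.0532) and that of Crebbp in MZ after the GC and length correction (0.0642). The medians of the list were -0.01, -0.22 and 0.22 in the 3 comparisons.

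Genes of class II trafficking and turnover numbered 12, of which 10 were tested, since the rows of March1 disagree in 1 library and March8 was below the minimum. In BDL against FO 2 rose, Mif (0.75, adjusted p = 0.00389), the cytokine that binds surface CD74, and Cd44 (0.56, 0.0344), the signalling partner of CD74, and 0 fell, where 6.04% of rows rose. Both also rose in MZ against FO, by 0.60 and 0.55. Mif was at 63.4, 60.7 and 69.0 FPKM in FO, 116, 106 and 101 in BDL and 89.7, 99.8 and 104 in MZ libraries, so that every FO library was below every other. Ap2m1 and Hgs, which serve endocytosis and endosomal sorting, fell in MZ, with log2 differences of -0.41 and -0.35, so that 2 rose and 2 fell, where 14.3% and 12.8% of rows did. Ap2m1 was 0.68 higher in BDL than in MZ, and Rab7, a late endosomal GTPase, 0.46 higher, 2 of 10 where 16.5% of rows were higher. The date block brought the count of genes that rose in BDL to 4 against FO, where 15.6% of rows rose, and 4 against MZ, where 26.2% did, with Lamp2 (0.48, adjusted p = 0.0283) among the former. Without both third-date libraries 3 rose in BDL against FO, where 11.4% of rows did. In MZ against FO 2 then rose and 4 fell, where 18.8% and 23.2% of rows did. Between BDL and MZ 3 were then higher in BDL, where 25.6% of rows were. With 1 library left out, the calls were lost for Cd44 in BDL against FO and Rab7 in BDL against MZ (any library but MZ replicate 3, adjusted p 0.0511 to 0.139), Cd44 in MZ (FO replicate 1, 0.0512), Ap2m1 in MZ (any FO library, BDL replicate 1, MZ replicate 1 or 2, 0.0514 to 0.112) and Hgs in MZ (FO replicate 1 or 3, MZ replicate 1 or 2, 0.0817 to 0.108). Rab7 also lost its call after upper quartile scaling (0.0588), after quantile normalization (0.0721) and in the 6 compared libraries alone (0.105), and Cd44 in BDL in the 6 compared libraries alone (0.0522). The medians were 0.28, 0.02 and 0.22.

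**Figure D4:**
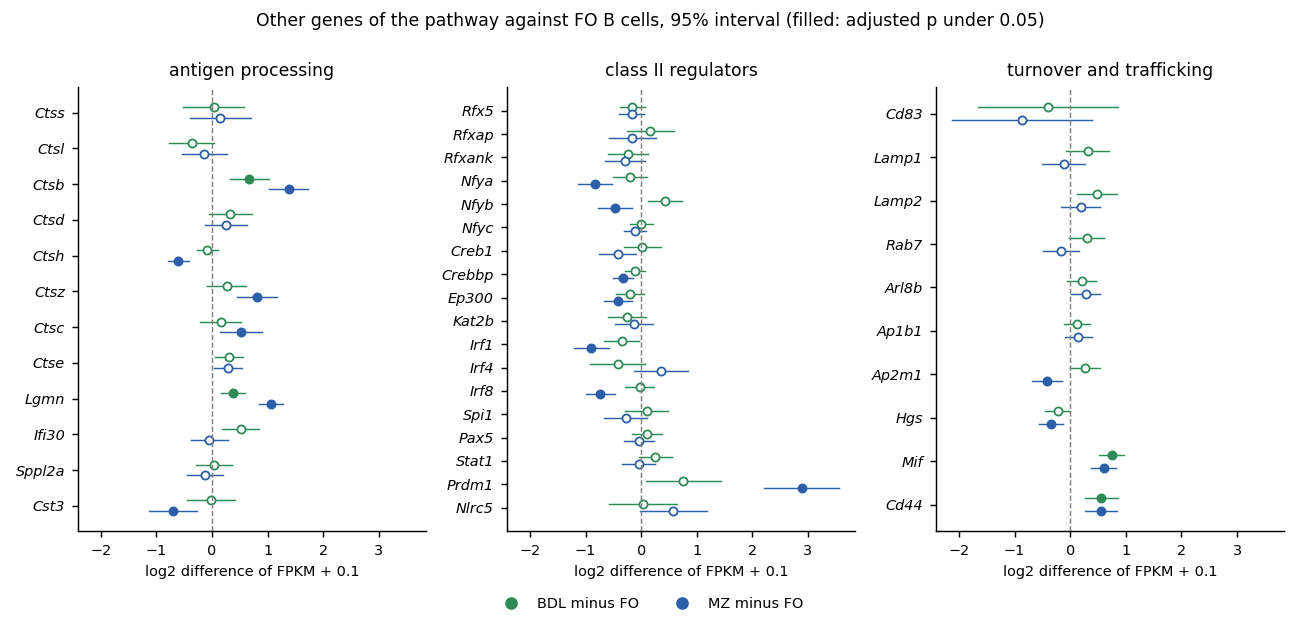
Log2 difference from FO B cells of FPKM + 0.1 with its 95% interval for the listed genes of antigen processing, class II regulation, and turnover and trafficking, in green for BDL and blue for MZ, with filled points for an adjusted p under 0.05 in limma. Ctsb and Lgmn lie right of 0 in both subsets and further right in MZ, and the regulators that passed lie left of 0 in MZ except Prdm1.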

How the data were processed

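RNA-seq of 9 libraries of sorted splenic B cells (3 each of FO, BDL and MZ) was analysed. The authors mapped reads to mm9 with TopHat2 2.1.0 and deposited, per gene and library, FPKM computed with Cufflinks. Their table of Cuffdiff comparisons (fold changes and p-values) was not used. The labels describe single-end reads without strand and the study a stranded kit, and the gene annotation is not given in the sources used here. No counts were at hand, so depth was estimated from whole-number steps in low values of genes with 1 transcript of at least 3000 nt. Of these values, 71.0 to 81.6% came within 0.1 of whole fragments, where chance would give 20%. Columns summed to 446033 to 517208 FPKM and were not rescaled. Of the symbols 271 are repeated, on 776 rows, and for 94 of them the rows differ in FO replicate 1 only; rows were kept as deposited.

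Values were tested as log2(FPKM + 0.1) with limma 3.58.1 in R 4.3.3 (eBayes with a trend, subset as the only term, all 9 libraries), on the 11597 rows whose mean reached 0.5 FPKM, with Benjamini-Hochberg adjustment over these rows. A fold change is on this scale. Nothing states that replicates came from separate cohorts beyond their dates, and p-values measure the spread between these libraries. The fit was checked on simulated data. Gene positions came from GENCODE M1 on NCBIM37, promoters from RefSeq, and figures and sequence searches were made with Python 3.11.15, matplotlib 3.10.9 and Biopython 1.88.

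The members, gene lists (processing, regulators, turnover and trafficking, and cell markers) and tests were chosen with earlier results of these data known. All 10 members, the class II region rows H2-Ea, H2-Ea-ps, H2-Eb2, H2-Pa and Btnl2, and up to 5 genes per list, comparison and direction past the test are named by rule. Emr1, Itgam, Cd68, Cr2, Cd93, Cd5, Lck, Sdc1, Ctss, Crebbp, Rfx5, Rfxap, Rfxank, March1, March8 and the genes named under the date block were chosen after their values were seen.

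The date codes of the titles, shared by 1 library of each subset, were taken as pairs. Deviations from the subset means of libraries of 1 date correlated across genes at 0.147, -0.0623 and 0.0491 for BDL with FO, 0.100, 0.182 and 0.244 for BDL with MZ, and 0.0238, 0.00770 and 0.0138 for FO with MZ. Since no date term is in the study's methods, the block was an alternative. Others were 0.01 or 1 FPKM added, scaling by the upper quartile or by quantiles, robust eBayes or eBayes without its trend, a mean of 1 FPKM required or no minimum, only the 6 libraries being compared, rows of a repeated symbol summed, a 2-fold minimum, and each library left out. Leaving out both BDL and MZ libraries of the third date, and correcting for transcript length and GC content (available for 85.6% of rows) with or without the block, were added after the data were seen.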

Additional observations from a re-analysis of the deposited data

How the results depend on the processing

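In BDL against FO B cells 2 of the 10 class II genes and 896 rows passed. The replicate block for the date gave 5 and 2378, and a 2-fold minimum 0 and 221. Upper quartile scaling gave 5 and 973, quantile normalization 6 and 977, and eBayes without a trend 5 and 915. Leaving out both third-date libraries gave 7 and 1762, the GC and length correction 4 and 950, and the correction with the block 6 and 2394. Leaving out 1 library gave 0 to 5 genes and 324 to 1109 rows. In MZ against FO 5 and 3141 passed. A 2-fold minimum gave 1 and 1035, quantile normalization 8 and 3464, and no third-date libraries 9 and 4888. Leaving out 1 library gave 3 to 6 genes and 2096 to 3943 rows. In BDL against MZ, where 3 and 3255 passed, a 2-fold minimum gave 0 and 905, the block 4952 rows, the correction with the block 5067, and leaving out 1 library 0 to 4 genes and 2158 to 3570 rows. Directions changed only for differences near 0, none of them past the test. H2-Oa in MZ against FO was at 0.026 after upper quartile scaling, 0.040 after quantile normalization and -0.099 to 0.047 with 1 library left out. In BDL against MZ, upper quartile scaling gave -0.081 for H2-Aa, -0.059 for H2-DMb1 and -0.014 for H2-DMb2, quantile normalization 0.063 for H2-Ab1, 0.17 for H2-Eb1, -0.022 for H2-DMb1 and 0.21 for H2-Ea-ps, the correction with or without the block -0.00018 for H2-Aa, and no third-date libraries 0.030 for H2-Eb1. With 1 library left out, H2-Aa ranged from -0.11 to 0.14, H2-Eb1 from -0.094 to 0.093 and H2-DMb1 from -0.046 to 0.17. Of 690 values of the 10 genes under all alternatives, 587 kept direction and side of the threshold, 48 passed only under the alternative, 33 passed only as reported and 22 changed direction. Causes were not tested. No alternative moved the median of all rows by over 0.1. Depth is known only as an estimate, and each subset has 3 libraries.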
